A study of Mus musculus with 12 samples.

Results

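A set of 7 miRNAs known from white blood cells or from inflammatory signalling was followed across 12 mouse hearts: mmu-miR-223-3p, mmu-miR-142a-3p, mmu-miR-142a-5p, mmu-miR-150-5p, mmu-miR-146a-5p, mmu-miR-146b-5p and mmu-miR-155-5p, written below without the species prefix. They were picked by name from the 1881 mouse miRNAs of an Agilent array, with earlier results of these data known. Part of the reason was that several were lower in treated diabetic than in treated control hearts. The pargyline groups thus took part in the choice, and only the untreated hearts were tested. Every heart came from a male C57BL6/J mouse of 5 months and was read on its own array, 3 in each of 4 groups. Control mice (C) had no diabetes, and diabetic mice (D) were mice with a blood glucose of at least 17 mM after 5 daily doses of streptozotocin (50 mg/kg), which destroys insulin-producing cells and serves as a model of type 1 diabetes. The C + P and D + P mice were control and diabetic mice given pargyline, an inhibitor of monoamine oxidases, at 50 mg/kg per day for 12 weeks. Both agents were given to the whole animal, so neither acts on the heart or on leukocytes alone.

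A miRNA is a short RNA that guides an Argonaute protein to messenger RNAs, mostly through its seed, which lowers their stability and translation. White blood cells carry a characteristic set of them. miR-142 is made in nearly all blood lineages and gives mature RNA from both strands of its hairpin, miR-223 is abundant in neutrophils and other myeloid cells, where it restrains their maturation and activation, and miR-150 marks mature B and T lymphocytes, where it acts on the transcription factor Myb. miR-146a and miR-155 are induced by NF-κB in inflammation, miR-146a as a brake on the adaptors TRAF6 and IRAK1 and miR-155 as a product of activated macrophages and lymphocytes. In whole heart tissue, RNA of these kinds comes from resident and blood-borne leukocytes and, for miR-146a, also from endothelial and muscle cells, so fewer cells of a type and less RNA per cell cannot be told apart.

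The mature sequences are shown for their seeds and because a pair of them is nearly identical. RefSeq (GRCm38.p6) held 6 of the 7 members, with 5 different seeds, and miR-150-5p is only named here. The seed, bases 2 to 8 from the 5′ end, is in capitals.
miR-223-3p: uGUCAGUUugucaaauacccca
miR-142a-3p: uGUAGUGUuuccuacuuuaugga
miR-142a-5p: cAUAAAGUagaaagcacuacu
miR-146a-5p: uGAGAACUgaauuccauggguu
miR-146b-5p: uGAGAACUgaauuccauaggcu
miR-155-5p: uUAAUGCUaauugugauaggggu

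miR-146a-5p and miR-146b-5p share their seed, and no other mature miRNA of the RefSeq table had it. They were identical at 20 of 22 bases and differed by G18A and U21C, counted from the 5′ end with miR-146a-5p as the reference, and whether the probes of one also read the other was not tested. The members came from separate places in the genome. miR-223-3p lay on the plus strand of chrX:96242884-96242905, within the long noncoding RNA F630028O10Rik. The strands of Mir142 lay on the plus strand of chromosome 11, miR-142a-5p at chr11:87756867-87756887 and miR-142a-3p at chr11:87756903-87756925, and the opposite strand of that locus carries Mir142b. miR-146a-5p lay on the minus strand of chr11:43374435-43374456. miR-146b-5p lay on the plus strand of chr19:46342790-46342811, within the long noncoding RNA Gm36493. miR-155-5p lay on the plus strand of chr16:84714143-84714165, within its host transcript Mir155hg.

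The members were weak signals in this tissue. Of the 7, miR-223-3p, miR-142a-3p and miR-146a-5p were detected on all 12 arrays, miR-150-5p on 11, miR-142a-5p and miR-155-5p on 7 each, and miR-146b-5p on 0. The opposite strands of the other hairpins (miR-146a-3p, miR-146b-3p, miR-150-3p, miR-155-3p and miR-223-5p) and miR-142b, which is read from the minus strand of the Mir142 locus, were each detected on 0 of 12 arrays. The scanner writes an undetected miRNA as 0.1, and the lowest signal that it called detected lay between 1.34 and 2.24 over the 12 arrays, so an undetected member has no order below that level. Its error for a detected member ran from 7.95% of the signal (miR-223-3p) to 33.3% (miR-150-5p).

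The arrays differed in brightness by group, and this bears on every member. The median signal of the 128 miRNAs detected on all 12 arrays lay between 26.8 and 34.6 in C, and the ranges were 39.6 to 59.5 for D, 40.8 to 59.5 for D + P and 48.6 to 95.3 for C + P. C arrays detected 144 to 163 miRNAs and the arrays of D, D + P and C + P detected 165 to 203, 187 to 218 and 214 to 253. On the scanner scale the median miRNA was 0.77 higher (log2) in D than in C, 1.15 higher in C + P than in C and 0.41 lower in D + P than in C + P (log2 -0.41), and cyclic loess normalization, which evens out the arrays over those 128 miRNAs, brought these medians to 0.02, -0.04 and 0.02. The C and D arrays were on slide 1 and the pargyline arrays on slide 2, and diabetic hearts were in another array row than non-diabetic ones, so pargyline cannot be told apart from slide, nor diabetes from row. The library labelled D + P replicate 1 stood apart, with the lowest signal of each of miR-223-3p, miR-142a-3p and miR-146a-5p among all 12 arrays, although its median signal (40.8) was not the lowest. Results that rest on it are given with and without it. The tissue label was heart muscle, although the extraction text of the labels speaks of macrophages. Of 6 cardiomyocyte miRNAs, 5 were detected on every array, with a summed signal of 3140 to 17645 against at most 124 for the 3 members detected throughout, and miR-208b-3p was detected on none.

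miR-223-3p, the myeloid miRNA, gave signals of 11.5, 4.54 and 5.41 in the 3 C hearts, 20.2, 20.0 and 15.5 in D, 26.4, 30.8 and 52.4 in C + P, and 4.14, 11.1 and 16.2 in D + P. Every D and every C + P heart was above every C heart, and every D + P heart was below every C + P heart.

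miR-142a-3p, the pan-leukocyte strand, gave 10.5, 7.66 and 7.23 in C, 17.5, 19.1 and 15.4 in D, 26.9, 25.7 and 43.5 in C + P, and 3.25, 14.8 and 19.3 in D + P. On this unnormalized scale the C hearts were below every other heart except D + P replicate 1, and the C + P hearts were the highest. How many other miRNAs had this order was not counted. After normalization D + P replicate 2 (3.50, log2) lay below C replicate 1 (3.75) and C replicate 2 (3.66). D replicate 2 (4.39) then lay above C + P replicate 2 (4.34).

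miR-142a-5p, the other strand of the same hairpin, was undetected in all 3 C hearts, gave 3.37 and 2.99 in D with the third heart undetected, 8.74, 7.49 and 15.8 in C + P, and 3.50 and 7.81 in D + P with replicate 1 undetected. Where both strands were read, the 3p strand exceeded the 5p strand 2.75 to 3.43 times in C + P, 5.18 and 6.40 times in D, and 4.22 and 2.48 times in D + P. These ratios compare signals of different probes and describe the arrays only. The strands have no common scale per molecule.

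miR-150-5p, the lymphocyte miRNA, gave 3.87 and 4.54 in C with replicate 2 undetected, 12.0, 7.10 and 7.50 in D, 12.4, 15.3 and 24.3 in C + P, and 3.01, 10.3 and 12.5 in D + P. All D hearts lay above all C hearts on this unnormalized scale, on which the median miRNA was 0.77 higher (log2) in D. How many other miRNAs did so was not counted. After normalization the hearts overlapped, with C replicate 3 at 2.99 and D replicate 2 at 2.88 (log2).

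miR-146a-5p, the NF-κB brake, gave 6.85, 4.20 and 5.67 in C, 5.63, 7.07 and 6.06 in D, 16.3, 15.8 and 28.0 in C + P, and 3.65, 4.56 and 6.78 in D + P. Here C, D and D + P overlapped, and only the C + P hearts stood above the rest. Its seed partner miR-146b-5p was undetected in all 12 hearts.

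miR-155-5p was undetected in all 3 C hearts, gave 7.22 and 4.92 in D with the third undetected, 3.87, 5.83 and 11.2 in C + P, and 4.32 and 4.96 in D + P with replicate 1 undetected. Detected values of the groups overlapped.

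**Figure D1:**
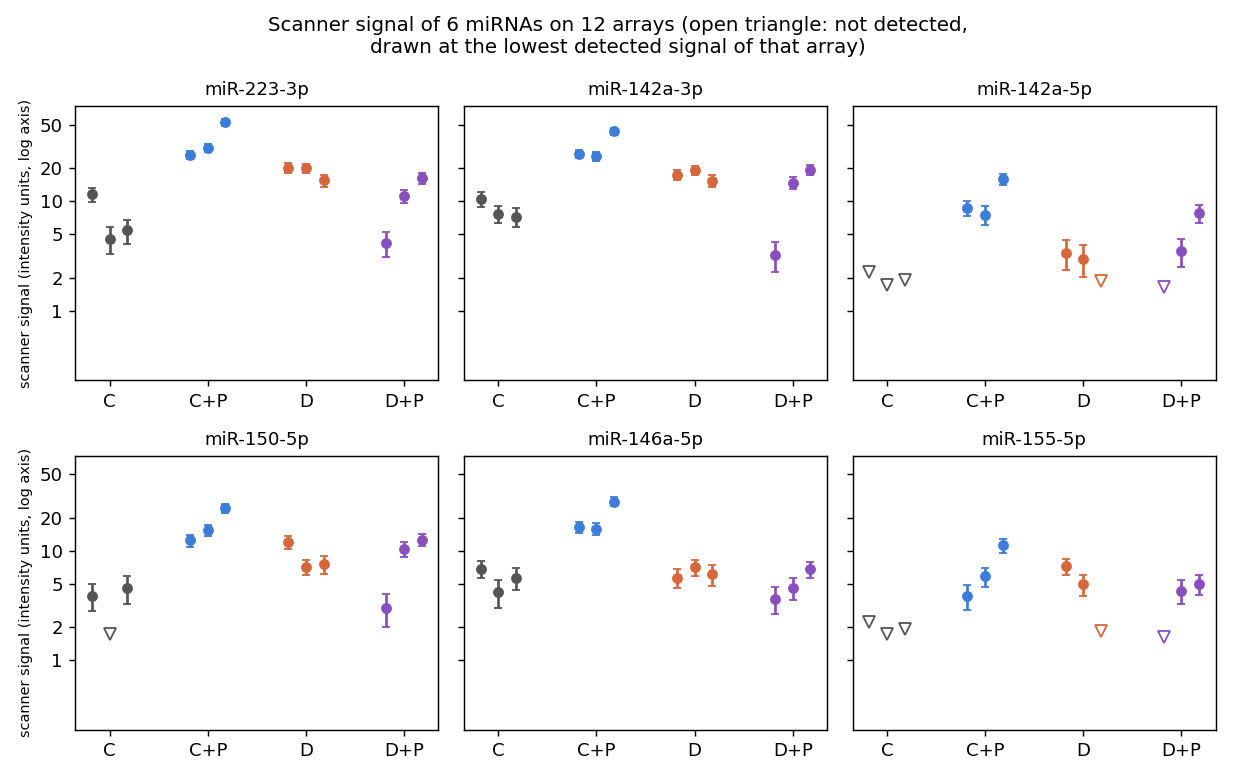
Scanner signal (intensity units, log axis) of the 6 members detected on at least 1 array, by group, with 1 point per heart and the scanner's own error as the bar. Open triangles are hearts in which the miRNA was undetected, drawn at that array's lowest detected signal; C + P hearts are the highest group for miR-223-3p (26.4 to 52.4) and miR-146a-5p (15.8 to 28.0).

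Whether diabetes alone went with a change in these miRNAs was asked by comparing D with C. It was the only comparison whose groups were not named in the choice of the members. That choice was made with earlier results of these data known, so the test is not fully independent of it. The spread behind the errors of this comparison was still pooled over all 4 groups. In the fit over the 128 miRNAs, miR-223-3p was higher in D than in C, a call that did not hold in every setting given below. Its normalized log2 signal averaged 3.24 ± 0.56 over the C hearts and 4.27 ± 0.17 over the D hearts (SD, n = 3). The log2 change was 1.03 (standard error 0.34, 95% confidence interval 0.28 to 1.77, limma adjusted p = 0.0276), which is 2.04-fold. miR-142a-3p averaged 3.59 ± 0.20 over C and 4.17 ± 0.23 over D, with a log2 change of 0.58 (standard error 0.41, interval -0.32 to 1.47, limma adjusted p = 0.237) that did not pass, though every D heart was above every C heart. With only the C and D arrays in the fit its limma adjusted p was 0.0136, and without D + P replicate 1 it was 0.00854. In these settings 79 and 88 of all 128 miRNAs were called, in place of 64. miR-146a-5p averaged 2.93 ± 0.13 over C and 2.89 ± 0.43 over D, with a log2 change of -0.04 (standard error 0.24, interval -0.56 to 0.49, limma adjusted p = 0.91), with overlapping hearts.

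Thus 1 of the 3 members detected throughout passed, against 50% of all 128 miRNAs (24.2% called higher and 25.8% called lower), so a call in this comparison does not set miR-223-3p apart from the array as a whole. D hearts did not overlap C hearts and were higher for 2 of the 3, against 35.2% of the 128. The median change of the 3 was 0.58, beside 0.02 over all 128.

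The call depended on how the arrays were brought to one level. With arrays scaled to their 75th percentile of detected miRNAs, miR-223-3p was 0.65 higher (log2, limma adjusted p = 0.0889) and miR-146a-5p changed by -0.66 (limma adjusted p = 0.0303), and all calls split into 18 higher and 38 lower in place of 31 and 33. With the filter that the deposited normalized table turned out to follow, a miRNA being detected throughout any single group (209 miRNAs), the values were 0.67 (limma adjusted p = 0.0873) and -0.60 (limma adjusted p = 0.0467). On the authors' own normalized values miR-223-3p was lower in D, by -0.56 (limma adjusted p = 0.249), and miR-146a-5p passed at -2.65 (limma adjusted p = 0.0323), with 14 calls higher and 33 lower. Without any normalization 57 calls were higher and 3 lower, and miR-223-3p was 1.49 higher (limma adjusted p = 0.011). The call of miR-223-3p was also lost when C replicate 2, C replicate 3, D replicate 1 or D replicate 2 was left out (limma adjusted p = 0.0964, 0.0919, 0.0515 and 0.0864), with changes of 0.85 to 1.09. miR-223-3p was higher in D in 22 of 23 distinct alternatives. The methods' t-test and Holm adjustment called none of the 3 members.

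**Figure D2:**
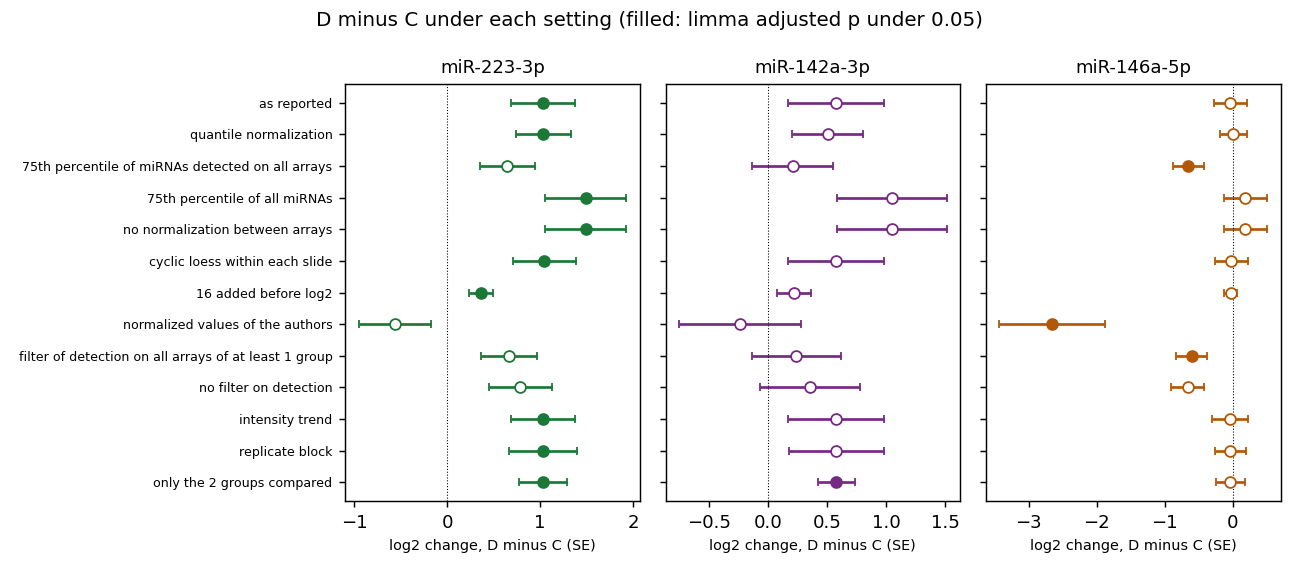
Log2 change of D over C for miR-223-3p, miR-142a-3p and miR-146a-5p (points, with the standard error) under the reported setting in the top row and each other setting below. Filled points passed an adjusted p of 0.05; miR-223-3p lies right of 0 except on the authors' values (-0.56), and miR-146a-5p moves from near 0 to -0.60 or lower in the settings in which it passed.

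The members outside the filter were compared in the fit over 209 miRNAs, with undetected hearts set to the lowest detected signal of their array, and 46.9% of those 209 were called. miR-150-5p averaged 2.38 ± 0.60 over C and 3.05 ± 0.15 over D, and its log2 change of 0.67 had a standard error of 0.34 and a limma adjusted p = 0.122. It did not pass. With C replicate 2, the undetected heart, left out the change was 0.34, and without C replicate 3 it was 0.96. miR-155-5p and miR-142a-5p were undetected in every C heart and in 1 of 3 D hearts and entered this fit only through the C + P hearts, so their differences are given without a test. miR-155-5p was 0.56 higher in D (standard error 0.35), and 0.33, 0.35 and 0.98 higher with D replicate 1, 2 or 3 left out, the last being its undetected heart. miR-142a-5p changed by -0.06 (standard error 0.33). The C value of both is a limit and not a level.

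Among the 4 groups, C + P had the highest mean of each of the 3 members detected throughout. The C + P hearts exceeded the C hearts without overlap for all 3 of them, where 37.5% of the 128 miRNAs did so, with normalized log2 signals of 4.65 ± 0.09 for miR-223-3p, 4.48 ± 0.14 for miR-142a-3p and 3.76 ± 0.14 for miR-146a-5p. The changes over C were 1.40 (standard error 0.34), 0.89 (0.41) and 0.84 (0.24) on the log2 scale. These are descriptions with no test, since the C + P hearts took part in the choice of the members, and slide cannot be told apart from pargyline here. On the authors' values miR-146a-5p turned, with a C + P change of -0.99.

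miR-142a-5p went from undetected in 3 C hearts to detected in 3 C + P hearts, at least 1.79-fold higher than the normalized lowest detected signal of the C arrays (2.46 against 1.62 on the log2 scale). The bound was 1.83-fold with quantile normalization and 2.42-fold with each array scaled by its 75th percentile. It does not hold on the authors' values, where the change was -0.06 (log2). miR-142a-5p entered this fit only through the C + P hearts. Their arrays detected more miRNAs (214 to 253) than the C arrays (144 to 163), and how many others went from undetected to detected was not counted. miR-155-5p was likewise detected in 0 C and 3 C + P hearts, but its normalized mean (1.78) lay close to the lowest detected signal of the C arrays (1.61), with C + P replicate 1 at 1.55, so no fold is given. miR-150-5p was 3.28 ± 0.06 in C + P, a log2 change of 0.90 (standard error 0.34), with C replicate 2 set to its lowest detected signal.

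Under pargyline, diabetic hearts had less of the members than control hearts, which is the pattern that chose them and is given without a test. All 3 members detected throughout were lower in each D + P heart than in each C + P heart, as were 21.9% of the 128 miRNAs. miR-146a-5p was 1.99 ± 0.46 in D + P, a change of -1.77 (standard error 0.24) against C + P, miR-223-3p was 2.97 ± 0.79, a change of -1.68 (0.34), and miR-142a-3p was 3.08 ± 1.14, a change of -1.40 (0.41). The spread of miR-142a-3p came from D + P replicate 1, at 1.79 against 3.50 and 3.95. Without it the changes were -0.77 for miR-142a-3p, -1.28 for miR-223-3p and -1.74 for miR-146a-5p. Both groups were on slide 2, so slide does not separate them, whereas array row does. All 3 stayed lower in D + P in each of the 23 distinct alternatives run. That direction was part of the choice of the members, so the count is no further support for it. The smallest changes came with 16 added to each signal before the log (-0.63, -0.83 and -0.68 for miR-142a-3p, miR-223-3p and miR-146a-5p).

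Of the members outside the filter, miR-150-5p was lower in D + P than in C + P by -0.79 (standard error 0.34) and its hearts did not overlap. How many other miRNAs of the wider fit that holds it were lower without overlap was not counted, so this does not set miR-150-5p apart. miR-142a-5p changed by -1.04 (0.33) and miR-155-5p by -0.48 (0.35), both with overlapping hearts, and D + P replicate 1 stood at its lowest detected signal for each. Without that heart the 3 changes were -0.40, -0.74 and -0.23.

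**Figure D3:**
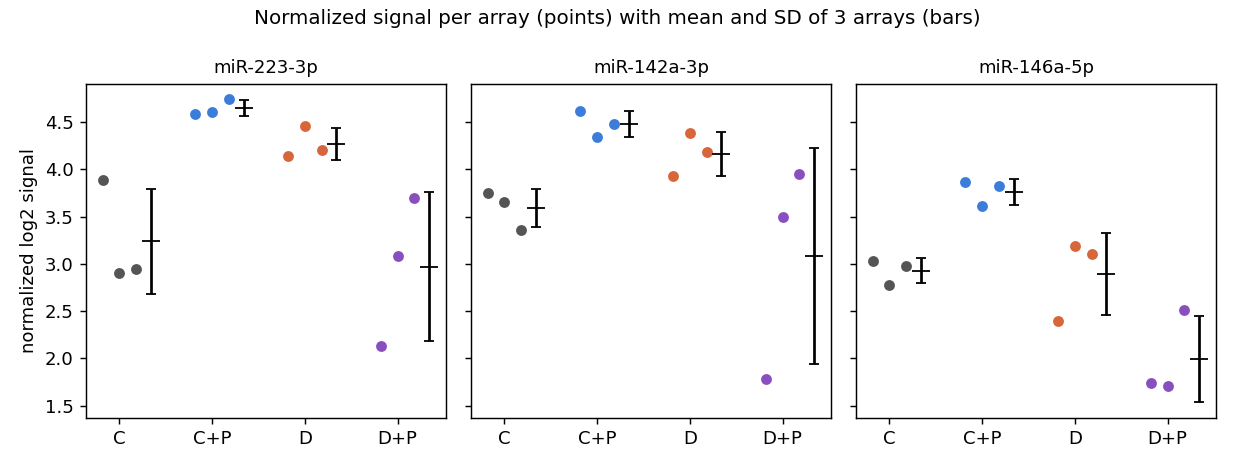
Normalized log2 signal of miR-223-3p, miR-142a-3p and miR-146a-5p in each heart (points) with the mean and SD of 3 hearts (black bars). The C + P hearts lie close together (SD 0.09 to 0.14) and the D + P hearts spread most (SD 0.46 to 1.14).

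Diabetic hearts with and without pargyline were set side by side with the same caution. miR-223-3p was lower in every D + P heart than in every D heart, with a change of -1.30 (standard error 0.34), as were 30.5% of the 128 miRNAs. miR-142a-3p (-1.09, standard error 0.41) and miR-146a-5p (-0.90, 0.24) were lower on average with overlapping hearts. Without D + P replicate 1 the change of miR-142a-3p was -0.43 and that of miR-223-3p -0.88.

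Against untreated controls, the D + P hearts overlapped the C hearts for miR-223-3p (-0.27, standard error 0.34) and miR-142a-3p (-0.51, 0.41). Without D + P replicate 1 these became 0.13 and 0.12. miR-146a-5p was lower in every D + P heart than in every C heart (-0.94, standard error 0.24), as were 5.47% of the 128 miRNAs. On the scanner scale, where D + P arrays were brighter than C arrays by 0.62 (median log2), its change was -0.18.

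The pargyline change in diabetic hearts minus that in control hearts, a quantity to which slide and row add nothing if they act alike in all groups, was -2.70 for miR-223-3p, -1.98 for miR-142a-3p and -1.74 for miR-146a-5p on the log2 scale, where the median of the 128 miRNAs was -0.08. Over the 128 miRNAs it was below 0 for 66 and above 0 for 62, from -2.88 (miR-15b-5p) to 3.02 (miR-7005-5p). With miR-1a-3p at -2.19 and miR-26b-5p at -2.13, values of this size were not particular to the members. All 4 groups enter this quantity, so it too is a description. It stayed below 0 for miR-223-3p and miR-142a-3p in every alternative that gave it, and for miR-146a-5p in all but the authors' values (0.67).

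**Figure D4:**
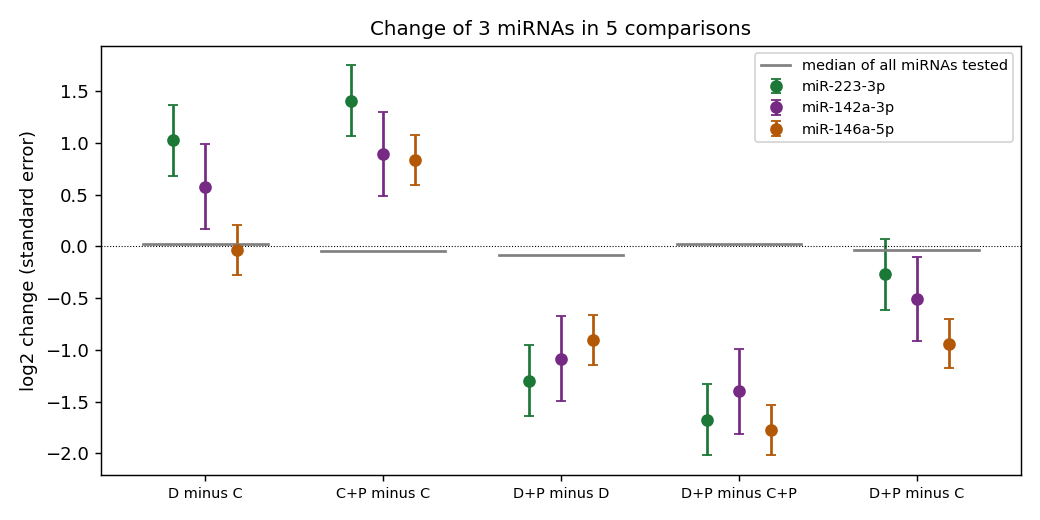
Log2 change with its standard error of 3 members in 5 comparisons, with the median of the 128 miRNAs as a grey line. The members lie above that line in C + P minus C (0.84 to 1.40) and below it in D + P minus C + P (-1.77 to -1.40); in D minus C miR-223-3p is at 1.03 and miR-146a-5p at -0.04.

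A wider list of 17 other miRNAs with known roles in immune cells or inflammation was read beside the members. Of these, 8 were detected on no array, including miR-132-3p, miR-147-3p and both strands of miR-511, which sits in a macrophage receptor gene. Another 4 were detected on some arrays, and miR-21a-5p, miR-125a-5p, miR-125b-5p, miR-181a-5p and miR-342-3p on all 12. In D against C, 1 of these 5 was called higher and 0 lower (background 24.2% and 25.8%), with a median change of 0.22 beside 0.02 over all 128. The call was miR-125a-5p, a relative of lin-4 with known targets in macrophage activation, at 4.48 to 5.39 scanner units in C and 15.9 to 19.3 in D, a log2 change of 1.38 (standard error 0.31, limma adjusted p = 0.00728). In D + P against C + P, 4 of the 5 were lower, with a median of -0.50, and miR-181a-5p, a regulator of T cell receptor sensitivity, was higher by 0.52.

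Markers of other cells moved in several directions, and their part in the members' changes was not tested. The red cell miRNAs, which would follow blood left in the tissue, gave D minus C changes of -0.57 for miR-144-3p (limma adjusted p = 0.0243), -0.13 for miR-451a and -0.21 for miR-486a-5p, and D + P minus C + P changes of 0.38, -0.21 and 0.76. Their 3 detected members summed to between 499 and 508 scanner units in C, with ranges of 760 to 965 for D, 766 to 1525 for C + P and 366 to 900 for D + P, and miR-144-5p was at 0 detections. The fibroblast-linked miR-199a-3p and miR-199a-5p rose in D by 0.91 (limma adjusted p = 0.00811) and 0.65 (limma adjusted p = 0.0073), and both were lower in D + P than in C + P (-0.75 and -0.11). Summed over the pair, their signal lay between 28.8 and 31.1 in C, with ranges of 65.2 to 93.3 for D, 73.9 to 158 for C + P and 29.5 to 83.5 for D + P. miR-214-3p, the other fibroblast marker, was detected on 6 arrays. The endothelial miR-126a-3p changed by 0.20 in D (limma adjusted p = 0.171) and by -0.32 in D + P against C + P. Its partner strand miR-126a-5p was undetected in all 3 C hearts and detected in all 9 others. It gave 6.33 to 14.7 scanner units in D, 17.2 to 37.4 in C + P and from 4.78 in D + P. Every C + P heart was above every other heart on this unnormalized scale, where C + P arrays were the brightest as a group. How many other miRNAs showed this order was not counted. Of the 5 cardiomyocyte miRNAs detected throughout, miR-1a-3p was called higher in D (1.32, limma adjusted p = 0.00347) and miR-208a-3p changed by -0.78 (limma adjusted p = 0.0073), and 4 of the 5 were lower in D + P than in C + P, with a median of -0.15. The smooth muscle miR-143-3p and miR-145a-5p changed by 0.47 (limma adjusted p = 0.0469) and 0.38 (limma adjusted p = 0.0898) in D, and by -0.31 and 0.53 in D + P against C + P.

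**Figure D5:**
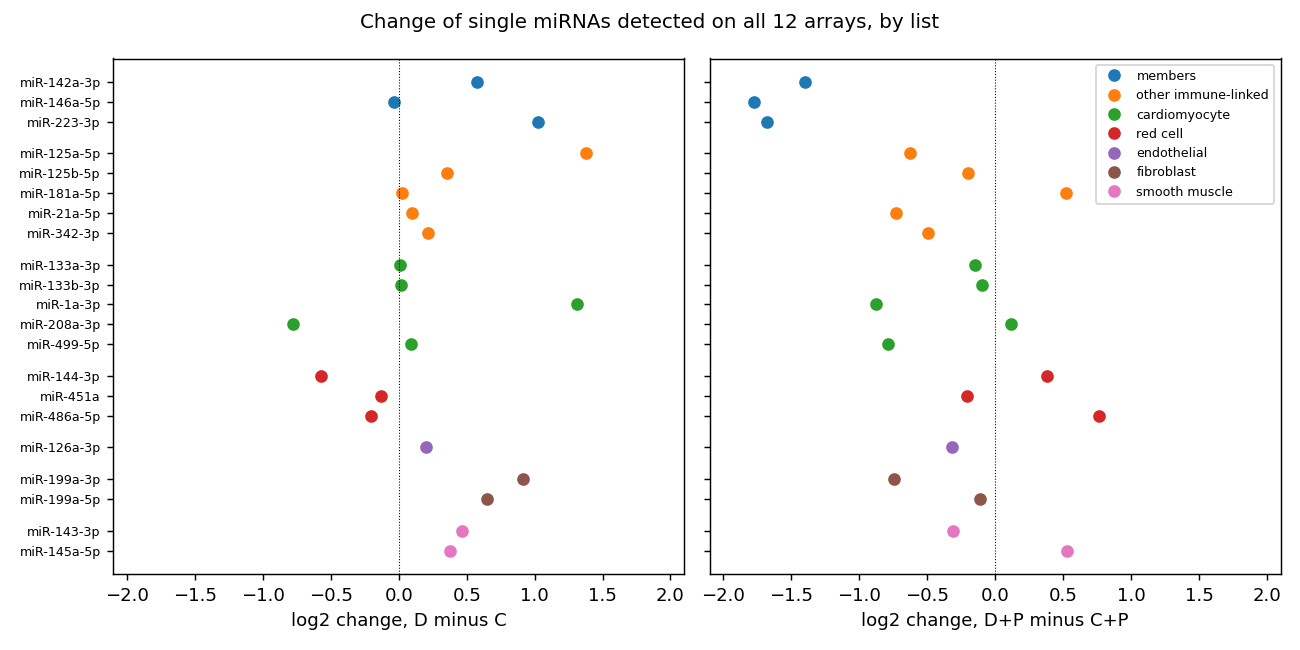
Log2 change of single miRNAs detected on all 12 arrays, in D minus C (left) and D + P minus C + P (right), coloured by list. On the right the 3 members lie furthest left (-1.77 to -1.40), which is the contrast that chose them, and on the left they spread from -0.04 to 1.03.

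Across the 12 hearts the members' normalized signals followed each other, with Pearson's r of 0.91 between miR-223-3p and miR-142a-3p, 0.79 between miR-223-3p and miR-146a-5p and 0.77 between miR-142a-3p and miR-146a-5p. Without D + P replicate 1 these were 0.93, 0.70 and 0.75. They are descriptions over points that share arrays, slides and groups, in a table where the upper quartile of all 8128 pairs was 0.63 and the 95th percentile was 0.88. The members were chosen partly for being lower in D + P than in C + P, so positive values between them were partly set by that choice. The profiles most like miR-223-3p were those of miR-126a-3p (0.94), miR-149-5p (0.93) and miR-195a-5p (0.91). Those most like miR-142a-3p were miR-21a-5p (0.95), miR-15a-5p (0.91, and 0.73 without D + P replicate 1) and miR-199b-5p (0.88). Those most like miR-146a-5p were miR-21a-5p (0.89), miR-499-5p (0.84) and miR-345-5p (0.81).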

How the data were processed

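Total RNA of 12 hearts was hybridised to 1-colour Agilent mouse miRNA arrays. The labels give 200 ng, and the paper's methods give another amount for the miRNA arrays. The deposited scanner tables hold a signal intensity, its error and a detection flag per miRNA, with undetected miRNAs written as 0.1 and an error of 1, and no normalization between arrays. The authors also deposited normalized intensity values, by cyclic loess per their methods, for 209 miRNAs, all of them detected on every array of at least 1 group, of which 128 were detected on all 12. That table holds 6 of the 7 members and was used as an alternative. Cyclic loess of the scanner signals run here did not return its values (per-array Pearson's r 0.923 to 0.974 across miRNAs, median absolute log2 difference 0.119 to 0.471), so how it was made is not fully known.

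Here scanner signals of the 128 miRNAs were put on the log2 scale and normalized by cyclic loess (span 0.7, 3 iterations, limma 3.58.1 in R 4.3.3). limma was fitted to the 4 groups with one spread per miRNA, two-sided, with Benjamini-Hochberg adjustment over all 128 and a threshold of 0.05. Members outside that filter were fitted among the 209, with undetected values set to the lowest detected signal of the array. Non-overlap means that every array of one group exceeded every array of the other. Precision is limited by the small number of arrays (3 a group), and the p-values measure the spread between these hearts. The steps were tested on simulated data.

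The members, lists and tests were chosen with earlier results of these data known. Besides the members, the miRNAs named were their opposite strands, the calls of the other immune-linked list in D against C, cell type markers, and the 3 profiles most like each member. Alternatives were quantile normalization, 75th-percentile scaling over detected or all miRNAs, no normalization, normalization within each slide, 16 added before the log, other detection filters, the authors' values, an intensity trend, a replicate block, only the groups compared, the methods' t-test, Holm adjustment and each array left out. Sequences and positions are from RefSeq, GRCm38.p6. Replicates 1 to 3 of different groups were different mice. Of 18 pairs of same-numbered arrays, 4 had deviations that correlated above 0.1 (range -0.37 to 0.49), so the numbers did not pair the samples.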

Additional observations from a re-analysis of the deposited data

Results flagged for a closer look

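In the fit over 128 miRNAs, miR-223-3p and miR-142a-3p lay in opposite directions in the untreated and the pargyline-treated hearts. All D hearts were above all C hearts and all D + P hearts below all C + P hearts, and the change under pargyline minus the change without it was -2.70 for miR-223-3p and -1.98 for miR-142a-3p on the log2 scale. The D + P and C + P hearts had a part in choosing these miRNAs, so the difference was not tested. Without D + P replicate 1 it was -2.29 and -1.32. miR-142a-3p did not pass in D against C (limma adjusted p = 0.237). In the fit over 209 miRNAs the D and C hearts overlapped for both, and on the authors' values both were lower in D (-0.56 and -0.24), so the directions were not opposite there. Groups of 3 are too small for a check of single outlying hearts.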

How the results depend on the processing

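The count of members that passed in D against C (1) was 0 with no detection filter, with the methods' t-test under Benjamini-Hochberg or Holm adjustment and with limma under Holm adjustment (1 at an unadjusted p under 0.05 in each of the last 3), 2 with only the C and D arrays (miR-142a-3p adjusted p = 0.0136), and 0 to 2 with an array left out, 0 without C replicate 2 or 3 or D replicate 1 or 2 and 2 without D + P replicate 1 (miR-142a-3p adjusted p = 0.00854). It stayed at 1 with 75th-percentile scaling over detected miRNAs, with the filter of 209 and on the authors' values, where the member was miR-146a-5p and not miR-223-3p. No normalization and the 75th percentile of all miRNAs gave the same values and count here as 1 alternative. miR-223-3p was called higher in 15 of 23 limma alternatives with Benjamini-Hochberg adjustment (adjusted p 0.00358 to 0.791), miR-142a-3p in 2 (0.00854 to 1). miR-146a-5p was called lower in 3 (0.0303 to 0.999) and was higher in 6: 0.0064 with quantile normalization, 0.19 with none or with the 75th percentile of all miRNAs, and -0.23 to 0.16 with arrays left out. The authors' values turned miR-223-3p (-0.56), miR-142a-3p (-0.24), miR-150-5p (-0.23) and miR-142a-5p (0.98). miR-142a-5p was also higher with none or the 75th percentile of all (0.44) and within slides (0.062), and -0.23 to 0.054 with arrays left out. Of the members outside the filter, miR-150-5p alone was tested. It did not pass as reported, nor at an unadjusted limma p under 0.05, nor with any array left out. It passed with no normalization or the 75th percentile of all (limma adjusted p = 0.0416). miR-155-5p and miR-142a-5p were undetected in every C heart, so no call is counted for them in any setting. Without D replicate 3, in which it was undetected, miR-155-5p was 0.98 higher in D. The other immune-linked calls (1) were 2 with quantile normalization, the 75th percentile of all, none, 16 added or only the 2 groups, 0 on the authors' values or with no filter, and 1 to 2 with arrays left out. Members higher in D than C (2) were 0 on the authors' values and 2 to 3 with arrays left out. Members higher in D + P than C (0) were 2 with no normalization or the 75th percentile of all, and 0 to 2 with arrays left out. For the difference of the pargyline changes (0 above 0), 1 was above 0 on the authors' values. The calls over all miRNAs (64) were 98 with the filter of 209, 5 with no filter and 79 with only the C and D arrays. They were 33 and 42 without C replicate 2 and 3, and 88 without D + P replicate 1. With a replicate block, 59 miRNAs passed, miR-223-3p at an adjusted p of 0.0425, and no member's call changed. The cause of these shifts was not tested. The C arrays had the lowest median signals and detected the fewest miRNAs, and whether these are linked was not tested.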

Other observations

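On the authors' normalized table, miR-142a-5p stood at 1.30 to 2.02 in the 3 C hearts, where the scanner did not detect it, and at 0.139 to 0.236 in D + P, where 2 of 3 hearts did. miR-155-5p stood at 1.43 to 2.64 in C, where it was undetected, and at 0.625 to 0.944 in C + P, where all 3 hearts had it. miR-146a-5p spread from 8.54 to 52.7 in C on that table, against 4.20 to 6.85 on the scanner scale.

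The closest relatives of miR-181a-5p on the immune-linked list were detected on some arrays. miR-181b-5p was detected in 1 C heart, 3 C + P, 3 D and 2 D + P hearts, miR-181c-5p in 1, 3, 2 and 3, and miR-181d-5p in 0, 3, 1 and 3. miR-31-5p was detected in 1 D and 1 D + P heart.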
